A study of Mus musculus with 12 samples.

Results

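The 77 genes described here encode the proteins of the cytosolic ribosome in MIN6 cells. MIN6 is an insulin secreting line from a mouse insulinoma, widely used in place of pancreatic β-cells. The genes were chosen by name among 49315 genes. Symbols made of Rps or Rpl and a number were taken, some with a short ending as in Rpl7a, Rps4x or Rps3a1. Rpsa, Rplp0, Rplp1 and Rplp2 were added, and symbols with -ps, which mark pseudogenes, were left out. Of the 77 genes, 31 encode proteins of the small subunit and 46 proteins of the large subunit. All 77 passed the filter on low counts, so none was lost before testing. Transcripts were counted by RNA sequencing in 12 libraries, 3 in each of 4 groups. All groups were wild type MIN6 cells grown in DMEM medium with serum and glutamine. The control group was untreated, and the starved group was kept for 16 h without amino acids. The re-added group had amino acids restored for 3 h, and the Rap group had amino acids restored together with "Rap" for 3 h. Neither the meaning of Rap nor its dose is given in the labels, and the time without amino acids before they were restored is not given either. Separate cultures are not stated for the libraries of a group. The p-values therefore rest on the spread among these libraries, which may be technical.

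Ribosomal proteins assemble with ribosomal RNA in the nucleolus into a small subunit, which decodes the messenger RNA, and a large subunit, which joins the amino acids. Their messenger RNAs begin with a run of pyrimidines, the terminal oligopyrimidine or TOP motif, through which the amino acid sensing kinase complex mTORC1 controls their translation. LARP1, a protein that binds the cap and the TOP motif, holds these messenger RNAs in a stable, untranslated form when mTORC1 is inactive. The β-cell makes large amounts of insulin and so depends on a large supply of ribosomes.

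The starts of 8 of the genes named below are shown as a description. Each line gives 80 bases from RefSeq on GRCm38.p6, 60 before the annotated start and 20 from it on, 5′ to 3′ on the strand of the gene. Capitals mark CCGGAAG, the core bound by ETS factors such as GABP, on either strand, and runs of at least 5 C or T that reach within 5 bases of the annotated start on either side. In Rpl27 the marked run ends before the start.
Rpl41 (chr10:128549149-128549228, minus strand): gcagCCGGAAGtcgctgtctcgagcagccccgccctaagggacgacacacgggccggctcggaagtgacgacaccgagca
Rpl27 (chr11:101442185-101442264, plus strand): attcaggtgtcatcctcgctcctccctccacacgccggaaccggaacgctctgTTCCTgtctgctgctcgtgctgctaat
Rps21 (chr2:180257319-180257398, plus strand): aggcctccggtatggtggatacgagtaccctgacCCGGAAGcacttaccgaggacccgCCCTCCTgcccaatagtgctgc
Rpl38 (chr11:114668520-114668599, plus strand): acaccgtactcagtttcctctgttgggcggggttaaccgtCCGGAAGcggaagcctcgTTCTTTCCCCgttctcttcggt
Rpl12 (chr2:32961652-32961731, plus strand): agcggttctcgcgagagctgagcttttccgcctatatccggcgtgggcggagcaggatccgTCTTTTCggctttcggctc
Rpl5 (chr5:107900468-107900547, plus strand): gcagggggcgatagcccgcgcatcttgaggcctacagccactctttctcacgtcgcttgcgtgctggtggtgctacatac
Rps4x (chrX:102189372-102189451, minus strand): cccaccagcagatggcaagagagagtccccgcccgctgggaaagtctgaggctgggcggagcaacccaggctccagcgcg
Rps6 (chr4:86857348-86857427, minus strand): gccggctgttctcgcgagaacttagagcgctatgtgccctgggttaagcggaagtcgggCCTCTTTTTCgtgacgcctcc
RefSeq promoter windows of 300 bases (250 before to 50 after the start) were matched by symbol for 57 of the 77 genes. The RefSeq start lay within 100 bases of the start in the count files for 45 of the 57. Among the genes shown it lay 137 bases inside the counted gene for Rpl41 and 153 bases inside it for Rpl12. CCGGAAG on either strand was found in 23 of the 57 windows (40.4%), against 9.12% of 27025 windows of all genes. A run of at least 5 C or T reaching within 5 bases of the start on either side was found in 31 windows (54.4%), against 32.9% of all windows. The GC box GGGCGG, bound by SP1 and SP3, was found in 34 windows (59.6%), against 35.9% of all. The E-box CACGTG, bound by MYC with MAX, was found in 5 windows (8.77%), against 7.24% of all. TATAAA on the gene's strand, 40 to 20 bases before the start, was found in 0 windows, against 2.09% of all. These matches describe letters, and binding was not measured.

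Several facts of the libraries bear on all results below. The libraries held 18555958 to 25631056 counted reads, and the lowest count of any of the 77 genes in any library was 1296. The β-cell markers (8 genes) summed to 40925 to 67005 CPM, counts scaled to a common library total, over the 12 libraries. They moved with the groups too, with means of 57160.3 CPM in control, 43184 CPM in starved, 42917 CPM in re-added and 47613 CPM in Rap cells and the highest sum in control replicate 2. Of these 8 genes 6 fell in starved against control cells (median log2 fold change -0.55), where 14.6% of all tested genes fell. Their median was 0.05 in Rap against re-added cells. Their part in the results was not tested. Markers of fibroblasts, leukocytes and endothelium (26 genes) were also present, although the labels name a single cell line. They summed to 1588 to 1882 CPM in control cells, 1565, 88.5 and 734 CPM in starved replicates 1, 2 and 3, 625, 82.9 and 80.0 CPM in the re-added ones, and 74.3 to 80.8 CPM in the Rap libraries. The 5 lung epithelium markers moved alike, from 1433 to 1716 CPM in control cells to 38.5 to 45.9 CPM in the Rap libraries. Of these 31 markers, 30 reached 1 CPM in all control libraries and 18 did so in all Rap libraries. None was at 0 in every library of a group, while Lum and Emcn were at 0 in at least 1 re-added library and Lum in at least 1 Rap library. Because these levels moved with the groups, the comparisons for which libraries of like marker level exist are also given for those libraries, an alternative chosen after the data were seen. Transcripts of mitochondrial genes made up 0.792% to 1.05% of reads in control libraries and 1.19% to 2.07% in the others, and their part in the results was not tested. In bulk RNA, fewer cells of a type and less RNA per cell cannot be told apart. Whether the other-cell and lung marker transcripts came from cells in these cultures was not tested.

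The 77 genes together took a large share of the reads, with the highest mean share in control cells. It was 3.49%, 4.16% and 3.16% of counted reads in the control libraries, 2.73%, 2.47% and 2.80% in the starved libraries, 2.83%, 2.85% and 2.57% in the re-added libraries, and 3.14%, 3.13% and 3.38% in the Rap libraries. All starved and re-added libraries lay below all control and Rap libraries, while the control and Rap libraries overlapped. As a share of the transcript units in the TPM table, which divides by exon length, the genes took 6.50% ± 0.596 in control, 5.12% ± 0.414 in starved, 5.27% ± 0.220 in re-added and 5.89% ± 0.113 in Rap cells (SD, n = 3). Reads of the large subunit genes exceeded those of the small subunit genes by a nearly fixed ratio. This ratio was 1.46 ± 0.0343 in control, 1.47 ± 0.00813 in starved, 1.53 ± 0.00716 in re-added and 1.47 ± 0.0161 in Rap cells (SD, n = 3). The re-added ratios, 1.52 to 1.53, lay above those of all other libraries, the highest of which was 1.502.

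**Figure D1:**
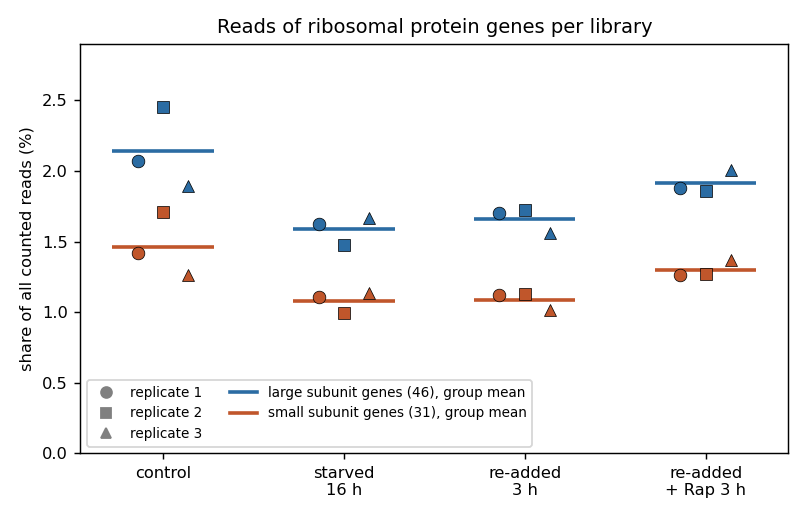
Share of counted reads taken by the small and the large subunit genes in each of the 12 libraries, by group, in percent, with points for libraries and lines for group means. For the small subunit the starved and re-added libraries lie between 0.996% and 1.14%, below the control and Rap libraries (1.26% to 1.71%).

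Per length of exon, the genes differed widely in level although most of their proteins are used in equal numbers in a ribosome. In control cells the highest were Rpl8 (2873 ± 288 TPM), Rps15 (2673 ± 259.5 TPM) and Rplp1 (2397 ± 344 TPM), and the lowest were Rps15a (88.5 ± 8.98 TPM), Rps20 (133 ± 23.3 TPM) and Rpl22 (143 ± 14.5 TPM; SD, n = 3 for all). TPM are counts per base of exon, rescaled to a common total. The 3 highest overlapped between libraries, as did Rps20 and Rpl22, and the highest mean was 32.4 times the lowest. The median was 728 TPM for the small subunit and 568 TPM for the large subunit, and 21 genes exceeded 1000 TPM. The exon length used by the authors sums the exons of all annotated transcripts and ran from 404 to 6270 bases, the longest being that of Rps15a. Across the 77 genes, control TPM fell with this length (Pearson's r of logs -0.70, Spearman's rho -0.70), a description in which length enters both measures. Levels in the other groups kept this wide range, and all further values are CPM scaled by TMM, which compare 1 gene between libraries.

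Without amino acids, nearly all ribosomal protein genes were lower, in both subunits and by a similar amount. Of the 77 genes, 65 fell (84.4%) and 0 rose in starved against control cells by the edgeR quasi-likelihood test, where 14.6% of all 16844 tested genes fell and 24.3% rose. The median log2 fold change was -0.50, which is 29.4% lower, and single genes ran from -0.83 to -0.04, all below 0. The median of all tested genes was 0.01. In the small subunit 26 of 31 genes fell and in the large subunit 39 of 46, each with a median of -0.50. In 65 genes all 3 starved libraries lay below all 3 control libraries, against 22.6% of all tested genes. With upper-quartile scaling the median of all genes shifted by -0.14, and calls over all genes went from 4101 higher and 2458 lower to 2961 higher and 3679 lower. The median of the 77 genes relative to all genes was -0.51 with TMM and between -0.52 and -0.51 over the 4 scalings.

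The largest falls were those of Rpl41 and Rpl27 of the large subunit. Rpl27 (chromosome 11, 101442298 to 101445529, plus strand, GRCm38.p6 as are all positions), a protein of the large subunit surface, was at 548, 598 and 489 CPM in control replicates 1 to 3, 290.4, 296 and 334 CPM in the starved, 424, 408 and 359 CPM in the re-added and 414, 419.7 and 456 CPM in the Rap replicates. All starved libraries lay below all others. The fall from 545 ± 54.7 to 307 ± 23.5 CPM (SD, n = 3) gave a log2 fold change of -0.83 (SE 0.09, edgeR adjusted p = 5.27e-05). Rpl41 (chromosome 10, 128548114 to 128549305, minus strand), which encodes the smallest protein of the ribosome, was at 826, 1229.7 and 816 CPM in control replicates 1 to 3, 498, 487 and 629.5 CPM in the starved, 645, 699 and 581 CPM in the re-added and 728, 696 and 875 CPM in the Rap replicates. Its starved libraries also lay below all control libraries, but starved replicate 3 reached the level of the re-added libraries (-0.83 against control, SE 0.16, edgeR adjusted p = 0.00188). Rps21 (chromosome 2, 180257377 to 180258445, plus strand) of the small subunit body was at 237, 333 and 214 CPM in control replicates 1 to 3, 147, 151 and 173 CPM in the starved, 167, 198 and 166 CPM in the re-added and 205, 198 and 201 CPM in the Rap replicates. Control replicate 2 stood far above the other control libraries, and the starved libraries lay below all control libraries (-0.73, SE 0.14, edgeR adjusted p = 0.0017). Rpl38 (chromosome 11, 114668524 to 114672331, plus strand), a protein of the large subunit linked to the translation of Hox messages, was at 134, 188 and 133 CPM in control replicates 1 to 3, 88.1, 84.0 and 106 CPM in the starved, 100.1, 117 and 98.1 CPM in the re-added and 117, 104 and 119 CPM in the Rap replicates. Its groups were ordered as those of Rps21 (-0.71, SE 0.14, edgeR adjusted p = 0.00176).

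**Figure D2:**
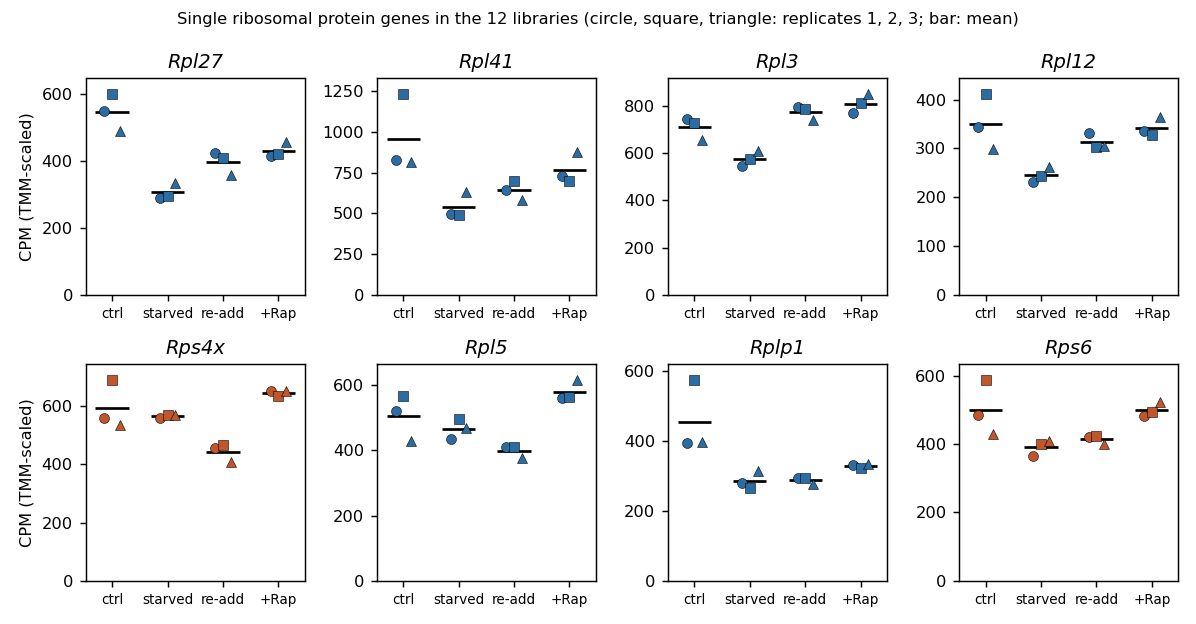
Level of 8 ribosomal protein genes by library (CPM scaled by TMM), with points for replicates 1 to 3 and bars for group means. Rpl27 and Rpl41 have their lowest mean in starved cells, whereas Rps4x and Rpl5 have theirs in re-added cells and overlap between Rap and control cells.

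Genes of the functional sites of the ribosome shared this fall with few exceptions. All 3 genes of the acidic stalk, which recruits the translation factors, fell. Rplp0 (chromosome 5, 115559467 to 115563727, plus strand) was at 1296, 1427 and 1088 CPM in control replicates 1 to 3, 856, 932 and 929 CPM in the starved, 972, 974 and 885 CPM in the re-added and 1081, 1148 and 1198 CPM in the Rap replicates. The starved libraries were below all control libraries (-0.49, SE 0.09, edgeR adjusted p = 0.0017). Rplp1 (chromosome 9, 61913284 to 61914542, minus strand) dropped from 454 ± 102 to 286 ± 24.6 CPM (-0.67, SE 0.13, edgeR adjusted p = 0.00147), and Rplp2 (chromosome 7, 141447370 to 141451585, plus strand) from 257 ± 67.7 to 176 ± 18.59 CPM (-0.55, SE 0.15, edgeR adjusted p = 0.0118; SD, n = 3). All 7 genes of the proteins around the exit of the peptide tunnel fell as well, with a median of -0.51. In the head of the small subunit 13 of 14 genes fell and in its body 13 of 17, each with a median of -0.50. Rps3 (chromosome 7, 99477896 to 99483738, minus strand), at the entry of the messenger RNA channel, went from 930.1 ± 157 to 668 ± 33.1 CPM (-0.48, SE 0.11, edgeR adjusted p = 0.00498). Rpsa (chromosome 9, 120127689 to 120132369, plus strand), which also serves as a laminin receptor, went from 738 ± 132 to 525 ± 21.0 CPM (-0.49, SE 0.11, edgeR adjusted p = 0.00328; SD, n = 3). Rps6 (chromosome 4, 86854660 to 86857412, minus strand), the protein phosphorylated by the mTORC1 target S6 kinase, was at 486, 586 and 428 CPM in control replicates 1 to 3, 366, 399.6 and 408 CPM in the starved, 419, 424 and 401 CPM in the re-added and 480.4, 493 and 523 CPM in the Rap replicates. Its starved libraries lay below all control libraries by a smaller margin (-0.35, SE 0.10, edgeR adjusted p = 0.0144).

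Rpl5 and Rpl11, which bind the smallest ribosomal RNA together and, when unassembled, inhibit the p53 ligase Mdm2, did not both pass the test. Rpl11 (chromosome 4, 136028265 to 136053428, minus strand) was at 480.4, 620.0 and 439.7 CPM in control replicates 1 to 3, 307, 307 and 344 CPM in the starved, 375, 386 and 347 CPM in the re-added and 409, 399.7 and 433 CPM in the Rap replicates. Starved libraries lay below all others (-0.68, SE 0.11, edgeR adjusted p = 0.000588). Rpl5 (chromosome 5, 107900502 to 107909005, plus strand) was at 519, 565 and 429 CPM in control replicates 1 to 3, 436, 496 and 467 CPM in the starved, 411, 411 and 377 CPM in the re-added and 559, 563 and 614 CPM in the Rap replicates. Its starved and control libraries overlapped (-0.11, SE 0.10, edgeR adjusted p = 0.359), and the difference between the genes' changes was not tested. Rpl5 was among 12 genes that did not pass in this comparison. Others among them, picked as examples after their values were seen, were Rpl10 (-0.09), Rpl4 (-0.14), Rpl23 (-0.05) and Rps4x (-0.07).

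Other-cell markers moved with this comparison, from 1588 to 1882 CPM in control cells to 88.5 to 1565 CPM in starved cells. Starved replicate 1, at 1565 CPM of these markers, against the 3 control libraries gave a median log2 fold change of -0.52, with all 77 genes below 0. With that lone library, assumed to vary like the other groups, 32 of the 77 genes fell, against 8.88% of the genes tested in that fit. Leaving out 1 library at a time gave 58 to 70 genes that fell. Control replicate 2 was the highest control library for 76 of the 77 genes, and without it the median was -0.35. The call of Rps20 was lost in 5 of the fits that left out a library, with -0.21 without control replicate 2. It was also lost by limma on TPM at both pseudocounts. The calls of Rps6, Rplp2, Rpl17, Rps14 and Rps20 were lost in the matched libraries, with log2 fold changes of -0.43, -0.64, -0.47, -0.62 and -0.48 there, and those of Rps6, Rplp2 and Rps20 also in a fit of only the 6 libraries compared.

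**Figure D3:**
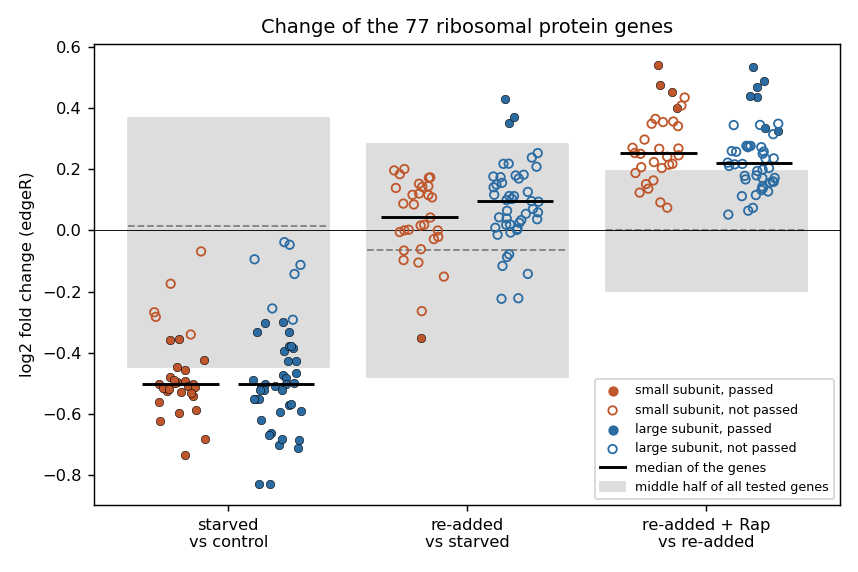
Log2 fold change of each of the 77 genes in the 3 main comparisons, by subunit, with filled points for genes that passed, black lines for medians and a grey band for the middle 50% of all tested genes. In starved against control cells the genes lie between -0.83 and -0.04, and in Rap against re-added cells all lie above 0.

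Between re-added and starved cells few ribosomal protein genes passed the test. Of the 77 genes, 3 rose (3.90%) and 1 fell (1.299%) in re-added against starved cells, where 18.4% of all tested genes rose and 18.8% fell by the edgeR quasi-likelihood test. The median log2 fold change was 0.08, with 0.04 for the small and 0.09 for the large subunit, against -0.06 for all tested genes. In 13 genes all re-added libraries lay above all starved libraries, against 25.7% of tested genes, and in 5 all lay below, against 24.9%. Rpl3 (chromosome 15, 80077794 to 80091868, minus strand), a protein at the peptide joining centre, was at 743, 729 and 657 CPM in control replicates 1 to 3, 545, 575 and 607 CPM in the starved, 796, 787 and 742 CPM in the re-added and 771, 811 and 848 CPM in the Rap replicates. All re-added and Rap libraries stood above all starved ones, and re-added replicates 1 and 2 above all control libraries. The rise from 576 ± 31.2 to 775 ± 29.1 CPM (SD, n = 3) was 0.43 on the log2 scale (SE 0.07, edgeR adjusted p = 0.000672). Rpl27, shown above, rose by 0.37 (SE 0.09, edgeR adjusted p = 0.00849) and regained part of its fall. Rpl12 (chromosome 2, 32961559 to 32965345, plus strand), a protein at the base of the stalk, was at 343, 411 and 299 CPM in control replicates 1 to 3, 232, 243 and 262 CPM in the starved, 332, 304 and 304 CPM in the re-added and 335, 328 and 364 CPM in the Rap replicates. Its re-added libraries lay above all starved libraries (0.35, SE 0.10, edgeR adjusted p = 0.0196).

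Rps4x was the gene that fell when amino acids were restored. Rps4x (chromosome X, 102184941 to 102189394, minus strand), a small subunit protein with an X-linked gene in the mouse, was at 559.7, 688 and 534 CPM in control replicates 1 to 3, 558, 571 and 569 CPM in the starved, 456, 467 and 408 CPM in the re-added and 651, 635 and 650.4 CPM in the Rap replicates. Its starved libraries lay inside the control range (-0.07, 95% confidence interval -0.27 to 0.13, edgeR adjusted p = 0.553), and all re-added libraries lay below all others. The fall from 566 ± 6.76 to 444 ± 31.3 CPM (SD, n = 3) was -0.35 on the log2 scale (SE 0.09, edgeR adjusted p = 0.00975). In libraries of like marker level (starved replicate 2, a lone library, against re-added replicates 2 and 3) the median of the 77 genes was 0.18, with 68 above 0. There Rpl3 was called (0.47, edgeR adjusted p = 0.0188), and the calls of Rpl27, Rpl12 and Rps4x were lost at 0.43, 0.38 and -0.33 (edgeR adjusted p = 0.0504, 0.115 and 0.145). The number that rose was 7 without control replicate 2 and 5 without control replicate 3. The number that fell was 4 without control replicate 2, and 2 without control replicate 3 or starved replicate 2.

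Between Rap and re-added cells all ribosomal protein genes lay in 1 direction, though few passed the test. All 77 genes had a log2 fold change above 0 in Rap against re-added cells, from 0.05 to 0.54, with a median of 0.24, which is 18.1% higher. Of the 77 genes, 11 rose (14.3%) and 0 fell by the edgeR quasi-likelihood test, where 4.55% of all tested genes rose and 3.43% fell. In 61 genes (79.2%) all Rap libraries lay above all re-added libraries, against 21.7% of tested genes. The median was 0.25 in the small subunit, where 4 genes rose, and 0.22 in the large subunit, where 7 rose. The median of all tested genes was 0.00042. The number of genes that rose differed between fits. For the fits that follow, the share of all tested genes that rose was not computed. It was 47 in a fit of only the 6 libraries compared, 21 by DESeq2, 28 without control replicate 2 and 18 without control replicate 3. It was 7 without starved replicate 3, 5 without re-added replicate 1 or Rap replicate 1, 3 without Rap replicate 2, and 2 without re-added replicate 2, re-added replicate 3 or Rap replicate 3.

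Rps4x and Rpl5 had the largest differences. Rps4x went from 444 ± 31.3 to 645 ± 9.21 CPM (SD, n = 3), a rise of 0.54 on the log2 scale (SE 0.09, edgeR adjusted p = 0.00361). Rpl5 went from 399 ± 19.5 to 579 ± 30.7 CPM (SD, n = 3), a rise of 0.54 (SE 0.10, edgeR adjusted p = 0.00572). For both genes every Rap library lay above every re-added and every starved library. Rpl17 (chromosome 18, 75000477 to 75003381, plus strand), at the tunnel exit, was at 348, 397 and 289 CPM in control replicates 1 to 3, 245, 230.3 and 248 CPM in the starved, 256, 256 and 214 CPM in the re-added and 324, 324 and 369.8 CPM in the Rap replicates. Its Rap libraries lay above its re-added and starved libraries (0.49 against re-added, SE 0.11, edgeR adjusted p = 0.0211). Rps14 (chromosome 18, 60774510 to 60778546, plus strand), a small subunit gene lost in a human marrow disease, was at 990.1, 1167 and 762 CPM in control replicates 1 to 3, 625, 689 and 745 CPM in the starved, 736, 682 and 645 CPM in the re-added and 879, 997 and 989 CPM in the Rap replicates. Its Rap libraries also lay above its re-added and starved libraries (0.47, SE 0.13, edgeR adjusted p = 0.0475). The call of Rps14 was lost in the matched libraries (0.51, edgeR adjusted p = 0.0745), with no filter on low counts (0.44), with upper-quartile factors (0.47) and without each library except control replicates 2 and 3, and that of Rpl17 without re-added replicate 2 or 3 or any Rap replicate.

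Other genes that rose, picked as examples after their values were seen, were Rps3a1 (0.45), Rpl13a (0.47), Rps24 (0.40) and Rpl31 (0.33). None of the stalk genes passed, at 0.28 for Rplp0, 0.19 for Rplp1 and 0.22 for Rplp2 (edgeR adjusted p = 0.102, 0.386 and 0.414). Rps6 was 0.27 higher (95% confidence interval 0.05 to 0.48, edgeR adjusted p = 0.136), and Rps3 0.35 (edgeR adjusted p = 0.081). The 12 genes that had not passed in starved against control cells had a median of 0.33 here, and 5 of them rose. The 65 that had fallen had a median of 0.24, and 6 rose. Of all tested genes 4.55% rose, and this share was not computed for all genes split in the same way. The difference between these sets was not tested. Across the 77 genes the changes of these comparisons, which share no library, had a Pearson's r of 0.33 and a Spearman's rho of 0.24, given as a description.

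The re-added and Rap libraries could be compared at like levels of the other-cell markers. The lung markers stayed apart, at 75.8 and 52.0 CPM in re-added replicates 2 and 3 and 38.5 to 45.9 CPM in the Rap libraries. Re-added replicates 2 and 3, at 82.9 and 80.0 CPM of these markers, against the 3 Rap libraries, at 74.3 to 80.8 CPM, gave a median of 0.22, with all 77 genes above 0. In that fit 5 of the 77 genes rose, against 2.95% of the genes tested in it. Rps4x (0.54, edgeR adjusted p = 0.0115) and Rpl5 (0.53, edgeR adjusted p = 0.0138) were among them.

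**Figure D4:**
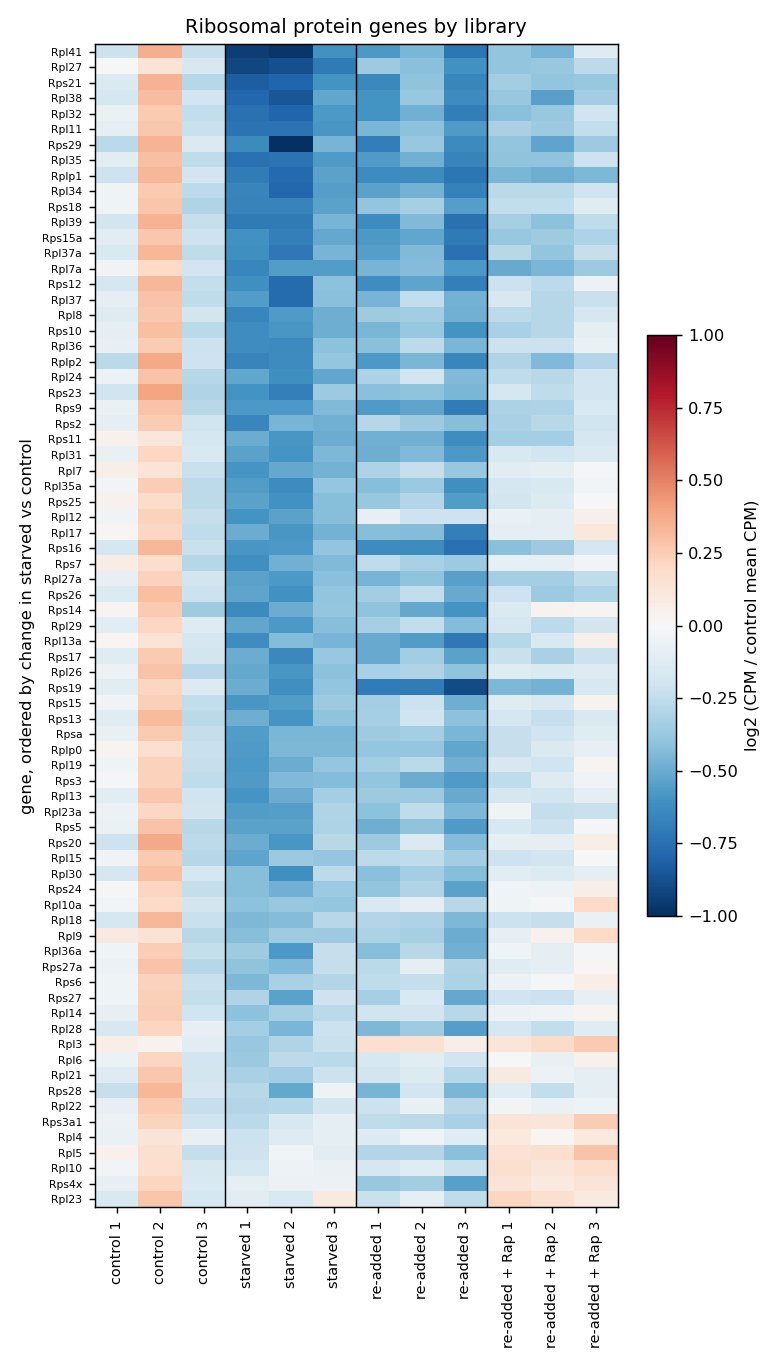
Log2 level of the ribosomal protein genes shown in each of the 12 libraries relative to the mean of the control libraries, with 1 line per gene and colours limited to 1 unit either way. Control replicate 2 stands above the other control libraries for nearly all genes, and the starved and re-added libraries are lower than control for most genes.

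Set against control cells, most of these genes were lower in re-added cells and fewer in Rap cells. In re-added against control cells 60 of 77 genes fell (77.9%) and 0 rose by the edgeR quasi-likelihood test, where 24.5% of tested genes fell and 24.8% rose, and the median was -0.39, or 23.9% lower. All re-added libraries lay below all control libraries in 56 genes, against 29.7% of tested genes, and in 0 genes all lay above, against 29.8%. The number that fell was 31 without re-added replicate 3. Both the starved and the re-added cells were called lower than control for 56 genes, with the control libraries shared by both. The share of all tested genes called lower in both was not computed. In Rap against control cells 13 genes fell (16.9%) and 1 rose (1.299%), where 25.3% of tested genes fell and 27.7% rose, and the median was -0.16. In 14 genes all Rap libraries lay below all control libraries, against 28.3% of tested genes, and in 1 all lay above, against 32.6%. The lowest was Rplp1 (-0.47, SE 0.13, edgeR adjusted p = 0.00895), followed by Rpl7a (-0.44, edgeR adjusted p = 0.00235), named after its value was seen. The gene that rose was Rpl3 (0.19, SE 0.07, edgeR adjusted p = 0.0423), a call lost in 7 other settings and in 9 of the 12 fits that left out a library. Without control replicate 2, 7 genes rose. Rps6 stood at 499 ± 21.9 CPM in Rap cells and 499.9 ± 79.5 CPM in control cells (SD, n = 3; edgeR adjusted p = 0.978). Other-cell markers were at 1588 to 1882 CPM in control, 80.0 to 625 CPM in re-added and 74.3 to 80.8 CPM in Rap libraries. No re-added or Rap library has marker levels like those of control. In both comparisons with control, the marker difference and the treatment therefore cannot be told apart. Without control replicate 2 the median of Rap against control was -0.0033, and the number that fell was 3. It was also 3 without Rap replicate 1 or Rap replicate 2, 22 without starved replicate 2, 21 without starved replicate 3 and 33 without control replicate 3.

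In Rap against starved cells 44 genes rose (57.1%) and 0 fell, where 20.2% of tested genes rose and 23.9% fell by the edgeR quasi-likelihood test, and the median was 0.31, or 24.1% higher. Of these, 14 were in the small and 30 in the large subunit. In 68 genes all Rap libraries lay above all starved libraries, against 27.5% of tested genes. With starved replicate 2 alone, which has like levels of other-cell markers and takes its spread from the other groups, the median was 0.42. Its lung markers summed to 77.1 CPM, against 38.5 to 45.9 CPM in the Rap libraries. The number of genes that rose was 69 without control replicate 2, 27 without Rap replicate 1 or 2 and 12 without Rap replicate 3. It was 18 without starved replicate 1 and 16 without starved replicate 2. The order of the group means was control, Rap, re-added, starved for 54 of the 77 genes, and control, Rap, starved, re-added for 12. Control was the highest group for 66 genes and Rap for 11. The order of the group means was not computed over all tested genes. Over all 4 groups 68 genes differed in an edgeR F test, against 71.9% of tested genes, and the 9 others were Rpl4, Rpl18, Rpl21, Rpl22, Rpl23, Rps20, Rps27, Rps27a and Rps28.

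The genes varied together from library to library within a group. Control replicate 2 was the highest control library for 76 genes and control replicate 3 the lowest for 72. Re-added replicate 3 was the lowest of its group for 73 genes, and Rap replicate 3 the highest of its group for 65. The median coefficient of variation over the genes was 17.8% in control libraries and 6.59%, 6.58% and 5.13% in the starved, re-added and Rap libraries. Starved replicate 3 was the highest of its group for 66 genes, with 734 CPM of other-cell markers, between the 88.5 and 1565 CPM of the other starved libraries. Genes with and without CCGGAAG in their window had medians of -0.52 and -0.48 in starved against control cells and 0.22 and 0.27 in Rap against re-added cells.

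Genes related to the ribosome but outside the name rule were taken from lists of known function. None of these lists was recomputed in libraries of like marker level, so the part of the other-cell markers in their values was not tested. Fau and Rack1, ribosomal proteins with other names, fell in starved cells (-0.49 and -0.32, edgeR adjusted p = 0.0116 and 0.0294), and Rack1, a signalling scaffold on the small subunit, rose with Rap from 472 ± 21.9 to 633 ± 49.8 CPM (0.42, SE 0.11, edgeR adjusted p = 0.0304; SD, n = 3). Of 5 tested paralogs of ribosomal proteins, 3 fell without amino acids, where 14.6% of all tested genes fell, and 3 rose on re-addition, where 18.4% rose. Rpl22l1, the paralog of Rpl22, went from 50.6 ± 9.80 to 21.1 ± 2.204 CPM in starved cells (-1.26, SE 0.13, edgeR adjusted p = 3.25e-05). Rpl36al went from 301 ± 42.7 to 178 ± 13.9 CPM in starved cells and to 269 ± 21.4 CPM in re-added cells (-0.76 and 0.60, edgeR adjusted p = 0.000209 and 0.000942; SD, n = 3).

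Among 16 other TOP messenger RNAs, mostly translation factors, 3 rose and 5 fell in starved cells, 1 rose and 5 fell on re-addition, and 3 rose and 1 fell with Rap. In starved against control cells their median log2 fold change was -0.15, with 10 below 0 and 6 above. Eef2 and Eif4b, given next, were among the 3 that rose there. Over all tested genes 24.3% rose and 14.6% fell in starved cells, 18.4% rose and 18.8% fell on re-addition, and 4.55% rose and 3.43% fell with Rap, and the counts of the lists in this and the following paragraphs are to be read against these shares. Eef2, the elongation factor that moves the ribosome along, went from 2225 ± 199.8 CPM in control cells to 3051 ± 229.9 CPM in starved, 2276 ± 48.3 CPM in re-added and 2874 ± 70.6 CPM in Rap cells (SD, n = 3). Eef2 was higher in starved than control, lower in re-added than starved and higher in Rap than re-added cells (edgeR adjusted p = 0.00074, 0.00115 and 0.0193). Eif4b, an initiation factor, rose in starved cells from 292 ± 13.4 to 421 ± 33.3 CPM and fell on re-addition to 290.3 ± 3.37 CPM (edgeR adjusted p = 0.000152 and 0.000104; SD, n = 3). Tpt1, a growth related TOP gene, rose with Rap from 950.1 ± 22.1 to 1376 ± 25.4 CPM (0.53, SE 0.09, edgeR adjusted p = 0.00403). Of 7 noncoding genes that host small nucleolar RNAs and carry a TOP motif, 1 fell in starved cells, 1 rose and 1 fell on re-addition, and 2 fell with Rap, with counts in starved cells and on re-addition near those shares.

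Most genes of chaperones and assembly factors that carry ribosomal proteins or new subunits rose on re-addition and were lower in Rap than in re-added cells. Of 10 tested, 8 rose on re-addition and 0 fell (median 0.71), against 18.4% and 18.8% of all tested genes. In Rap against re-added cells 6 fell and 0 rose (median -0.43), against 3.43% and 4.55%. In Rap against starved cells 3 rose and 0 fell (median 0.09), against 20.2% and 23.9%. Ltv1, an assembly factor of the small subunit, went from 35.0 ± 1.73 to 25.2 ± 2.00 CPM in starved cells, to 44.5 ± 0.483 CPM in re-added cells and to 26.6 ± 1.39 CPM in Rap cells (SD, n = 3). Each step passed (edgeR adjusted p = 0.000658, 1.08e-05 and 0.000184). Grwd1, the chaperone of Rpl3, went from 33.0 ± 1.23 CPM in starved to 59.3 ± 2.21 CPM in re-added and 31.4 ± 1.31 CPM in Rap cells (0.85 and -0.92, edgeR adjusted p = 5.24e-05 and 0.000222). Heatr3, which takes part in the nuclear import of Rpl5, went from 30.3 ± 3.56 to 54.0 ± 0.950 and 33.5 ± 1.18 CPM over the same groups (edgeR adjusted p = 2.18e-05 and 0.00065; SD, n = 3). Of their clients, Rpl3 rose on re-addition as given above, and Rpl5 stood at -0.22 there (edgeR adjusted p = 0.0917).

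The genes of TOP binding proteins and mTORC1 substrates (12 tested) gave 5 that rose and 1 that fell in starved cells, against 24.3% and 14.6% of all tested genes. Eif4ebp1, the translation repressor that mTORC1 inactivates, was at 31.2 ± 4.42 CPM in control, 70.04 ± 4.07 CPM in starved, 29.3 ± 0.0718 CPM in re-added and 18.58 ± 0.812 CPM in Rap cells (SD, n = 3). Its edgeR adjusted p was 4.62e-06 for starved against control, 1.95e-06 for re-added against starved and 0.00167 for Rap against re-added. Larp1 rose in starved cells from 116 ± 13.9 to 147 ± 11.3 CPM (0.34, SE 0.10, edgeR adjusted p = 0.0157). Of 8 factors that bind motifs of ribosomal protein promoters, 5 rose and 1 fell in starved cells, against 24.3% and 14.6% of all tested genes. On re-addition 5 fell, against 18.8%, and with Rap 2 rose, against 4.55%. Gabpa, the DNA binding subunit of GABP, was at 43.9 ± 5.60 CPM in control, 65.6 ± 6.42 CPM in starved, 42.2 ± 1.51 CPM in re-added and 55.2 ± 4.56 CPM in Rap cells. Its edgeR adjusted p was 0.00114 for starved against control, 0.000566 for re-added against starved and 0.0436 for Rap against re-added. Its partner Gabpb1 fell in starved cells from 39.3 ± 2.69 to 28.8 ± 2.96 CPM (-0.45, edgeR adjusted p = 0.00254; SD, n = 3). Sp3, which binds the GC box, rose in starved cells from 77.3 ± 1.65 to 114 ± 11.4 CPM (0.56, edgeR adjusted p = 0.000154).

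**Figure D5:**
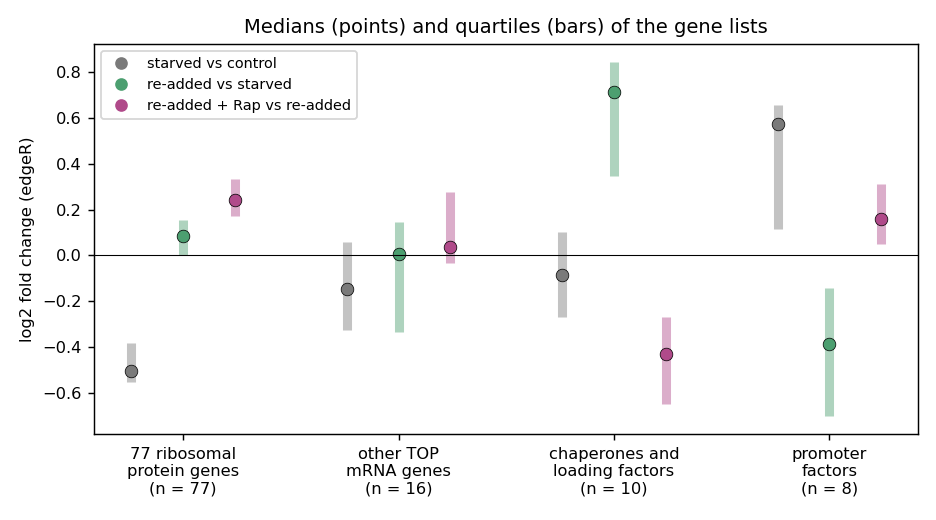
Log2 fold changes of 4 gene lists in the 3 main comparisons, with points for medians and bars from the lower to the upper quartile. The median of the ribosomal protein genes is -0.50 in starved against control cells, and the chaperone and loading factor genes have medians of 0.71 on re-addition and -0.43 with Rap.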

How the data were processed

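RNA was measured in 12 libraries of MIN6 cells, 3 in each of 4 groups taken from the sample labels. The authors deposited raw read counts per gene, 1 table a library, and a TPM table with gene names. Per the submitters' processing notes the build was GRCm38.p6, with Subread 2.0.1 and limma 3.46.0 named without a role. No source used here gives the aligner, the strand setting or the annotation release, so reads of overlapping genes, antisense genes and near-identical pseudogenes may be misassigned. The deposited TPM equal the counts over exon length, rescaled, within 5.0e-05. Reads of 278 ribosomal pseudogenes, those with -ps in their symbol, came to 0.236% to 0.339% of those of the 77 genes. Any pseudogenes under other symbols were neither counted here nor added in the alternative with pseudogene reads.

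Counts were tested in R 4.3.3 with edgeR 4.0.16 (filterByExpr with minimum count 10 and total 15, TMM, 1 quasi-likelihood fit of all 12 libraries with a mean for each of 4 groups and 8 residual degrees, Benjamini-Hochberg adjustment over 16844 genes, threshold 0.05). Tested genes held 99.9% of counts. SE is the log2 fold change over the root of F. Marker sums and read shares use raw totals. Alternatives were RLE, upper-quartile or no scaling, factors without the 77 genes, no filter, pseudogene reads added, only the 6 libraries compared, a replicate block, leaving out each library, DESeq2 1.42.0 and limma 3.58.1 on log2(TPM + 1) or log2(TPM + 0.1). Matched libraries were added after the data were seen. The routines were tested on simulated data. The genes and lists were chosen with earlier results of these data known. Named genes are Rps6, Rpl5, Rpl11, Rplp0, Rplp1, Rplp2, Rpsa and Rps3, the 4 called genes of largest change in each direction per main comparison (at least 5 CPM), calls against the majority where 5 or fewer, the 3 highest and lowest in control TPM, and called genes of the related lists, smallest p first. Promoter windows come from RefSeq. Results of some single genes are not reported here.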

Additional observations from a re-analysis of the deposited data

How the results depend on the processing

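The median log2 fold changes of the 77 genes were within 1 SD between libraries of the values given, except as follows. Re-added against starved gave 0.18 and Rap against starved 0.42 in matched libraries. With limma on TPM, at both pseudocounts, Rap against re-added gave 0.14 and Rap against starved 0.19. Counts moved by over 1.5 times as follows. In matched libraries 32 genes fell in starved against control, 1 rose and 0 fell in re-added against starved, 5 rose in Rap against re-added and 14 in Rap against starved. In re-added against starved, 5 rose by DESeq2, 5 rose and 4 fell by limma, 13 rose and 3 fell with only the 6 libraries compared, and 2 fell with library totals alone. In Rap against re-added, 21 rose by DESeq2, 7 with no filter and 47 with only 6 libraries, and in Rap against starved 29 rose by limma. In Rap against control, 31 fell by DESeq2, 22 with library totals, 21 by limma, 20 with no filter, 24 with RLE and 23 with upper-quartile factors. There 4 rose by limma and 0 in each other setting that moved, and 1 rose in re-added against control by limma. The cause was not tested. Leaving out 1 library gave 3 to 7 that rose and 1 to 4 that fell in re-added against starved, 2 to 28 that rose in Rap against re-added, 12 to 69 in Rap against starved, 31 to 72 that fell in re-added against control, and 3 to 33 that fell and 0 to 7 that rose in Rap against control. The medians then ran from -0.59 to -0.35 in starved against control and from -0.25 to -0.0033 in Rap against control. No named gene changed direction. Calls over all tested genes were not computed for these fits, except in matched libraries and with RLE, upper-quartile or no scaling.

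The replicate numbers gave no general pairing. Deviations of same-numbered libraries correlated above 0.1 in 2 of 18 pairs (median correlation -0.018), and 4 of 12 libraries correlated best with their own number. Those 2 pairs were starved with re-added replicate 1 (0.81) and starved with re-added replicate 2 (0.67). Unlike-numbered libraries exceeded 0.1 in 9 of 36 pairs, up to 0.63 for starved replicate 2 with re-added replicate 3. Starved and re-added replicates 1 had the highest other-cell marker sums of their groups, and a link was not tested. With the replicate block 65 genes fell in starved against control, 3 rose and 1 fell in re-added against starved, 8 rose in Rap against re-added, 38 in Rap against starved, 58 fell in re-added against control, and 10 fell and 0 rose in Rap against control. The block ended the calls of Rps14 in Rap against re-added, Rpl3 in Rap against control and Rps20 in Rap against starved.

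The limits are the 3 libraries a group, whose origin the labels do not give, the levels of other-cell markers that differ between groups and within the starved and re-added groups, and the unstated strand setting.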
